A study of Mus musculus with 7 samples.

Results

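Interferon-stimulated effector genes are the genes that cells switch on after sensing interferon or a virus, and 33 of them were followed here through fetal liver that lacks the RNA-binding protein Pcbp2. They were chosen by symbol. Of the 33 symbols, 30 were found in the table of gene results that the authors deposited, and these 30 genes were joined by identifier to the counts of 38924 genes in each library. The symbols Ifit3, Mx1 and Ifi44 were not among the 15548 genes of that table and were left out of all counts of members.

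Messenger RNA was sequenced from mouse fetal liver, collected 12.5 days post coitum, an age at which the organ is mainly a site of red blood cell formation. The wild-type group has 4 libraries, numbered 1 to 4, and the group labelled as a PCBP2 knockout has 3, numbered 3 to 5. The labels give no strain, sex, litter, allele or treatment, and do not say whether each library came from a separate embryo. The p-values therefore measure the spread between these libraries, which may be partly technical. Values are in CPM, a gene's assigned reads brought to a common library size, after TMM scaling, which corrects for differences in library composition. In each list below, values follow the order of wild type replicates 1 to 4 and then knockout replicates 3 to 5. Assigned reads ran from 31898339 to 44544889 per library, so a count of 3 reads, the limit of detection used here, equals 0.0662 to 0.102 CPM. The error given with a log2 fold change is its standard error (SE), and adjusted p-values are from edgeR unless another source is named. The targeted gene followed the labels. Pcbp2 measured 165, 329, 347 and 338 CPM in wild type and 2.24, 1.39 and 2.22 CPM in knockout (edgeR log2 fold change -7.26 ± 0.34, adjusted p = 1.29e-05). Wild type replicate 1 stood below the other 3 wild-type libraries in this gene and far above the knockout libraries.

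Type I and type III interferons act through JAK kinases that activate the factor ISGF3, which contains Stat2 and Irf9 and binds the interferon-stimulated response element (ISRE) of its target promoters. Type II interferon acts mainly at the gamma-activated site (GAS). The targets include blockers of viral RNA and translation, the ubiquitin-like modifier Isg15 with its enzymes, restriction factors at membranes, chemokines, and Irf7, which amplifies the response. PCBP2 is known from other cells as a negative regulator of Mavs, the adaptor of the cytosolic RNA sensors, through the ubiquitin ligase Itch. That link is background and was not measured here.

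The promoters below show the element through which interferon is known to switch on such genes. They are the 250 bases before the start of 4 genes, from RefSeq on GRCm38.p6, taken in order of the smallest p in the comparison of the genotypes among members whose window holds the searched motif. Each is written 5′ to 3′ in the direction of the gene, and capitals mark matches to the ISRE core GAAANNGAA on either strand, with overlapping matches run together.
Cxcl10, chr5:92348890-92349139, minus strand: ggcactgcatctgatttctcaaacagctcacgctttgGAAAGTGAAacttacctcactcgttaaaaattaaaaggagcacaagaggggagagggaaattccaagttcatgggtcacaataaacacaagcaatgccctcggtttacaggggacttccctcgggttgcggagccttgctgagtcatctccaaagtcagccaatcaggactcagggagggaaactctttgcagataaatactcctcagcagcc
Isg15, chr4:156200819-156201068, minus strand: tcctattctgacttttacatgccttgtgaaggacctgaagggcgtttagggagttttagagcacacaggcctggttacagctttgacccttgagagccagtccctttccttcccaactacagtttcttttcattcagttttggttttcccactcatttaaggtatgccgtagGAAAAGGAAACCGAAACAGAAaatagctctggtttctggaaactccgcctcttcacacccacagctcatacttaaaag
Oas1a, chr5:120907526-120907775, minus strand: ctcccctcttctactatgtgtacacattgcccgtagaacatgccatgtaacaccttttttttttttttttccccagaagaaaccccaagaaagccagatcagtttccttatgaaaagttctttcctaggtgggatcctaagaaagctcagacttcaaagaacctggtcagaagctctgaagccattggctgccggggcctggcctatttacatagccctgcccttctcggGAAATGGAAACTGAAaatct
Ifit1, chr19:34640639-34640888, plus strand: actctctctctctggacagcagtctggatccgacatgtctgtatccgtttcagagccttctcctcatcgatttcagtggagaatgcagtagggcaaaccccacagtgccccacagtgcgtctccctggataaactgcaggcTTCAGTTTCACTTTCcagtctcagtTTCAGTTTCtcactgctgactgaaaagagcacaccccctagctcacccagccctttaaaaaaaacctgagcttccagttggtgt
Isg15 and Ifit1 each held 3 matches, Oas1a held 2 and Cxcl10 held 1. In Ifit1 the matches lie on the opposite strand, so the capitals there read as the reverse complement. The nearest match began 14 bases before the start of Oas1a, 66 before that of Isg15, 84 before that of Ifit1 and 213 before that of Cxcl10.

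RefSeq promoter windows of 300 bases, from 250 before to 50 after a start, were given for 22 of the 30 members. No window was given for Oas2, Mx2, Usp18, Zbp1, Rtp4, Parp9, Parp14 and Ifi27l2a. The ISRE core was found in 10 of the 22 members (45.5%) and in 2638 of the 27025 genes with a window (9.76%). The GAS letters TTCNNNGAA, searched on both strands, with matches that may share bases with those of the ISRE core, were found in 5 of the 22 members (22.7%) and in 9.55% of genes. The members were listed as known targets of interferon, and a match describes the letters of a window, not a bound site.

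Most of the 30 genes were high in wild type replicates 1 and 2 and low in the other 5 libraries. Their summed level was 403, 417, 231 and 199 CPM in wild type and 206, 179.9 and 201 CPM in knockout. Wild type replicates 1 and 2 thus stood above the other 5 libraries, while wild type replicates 3 and 4 lay close to the 3 knockout libraries. In 28 of the 30 members replicates 1 and 2 were the 2 highest of the 4 wild-type libraries, against 13.4% of the 16226 genes tested. The exceptions were Cxcl10 and Herc6, in which replicates 1 and 3 were highest. In 25 of the 30 the highest wild-type library was at least 2 times the lowest, against 15.9% of tested genes. That ratio ran from 1.27 in Stat2 to 9.57 in Mx2, with a median of 2.80 over the members and 1.36 over all tested genes. Among the knockout libraries a range of 2-fold or more occurred in 3 members, Isg15, Oasl1 and Trim30a, and the median ratio of highest to lowest was 1.53.

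**Figure D1:**
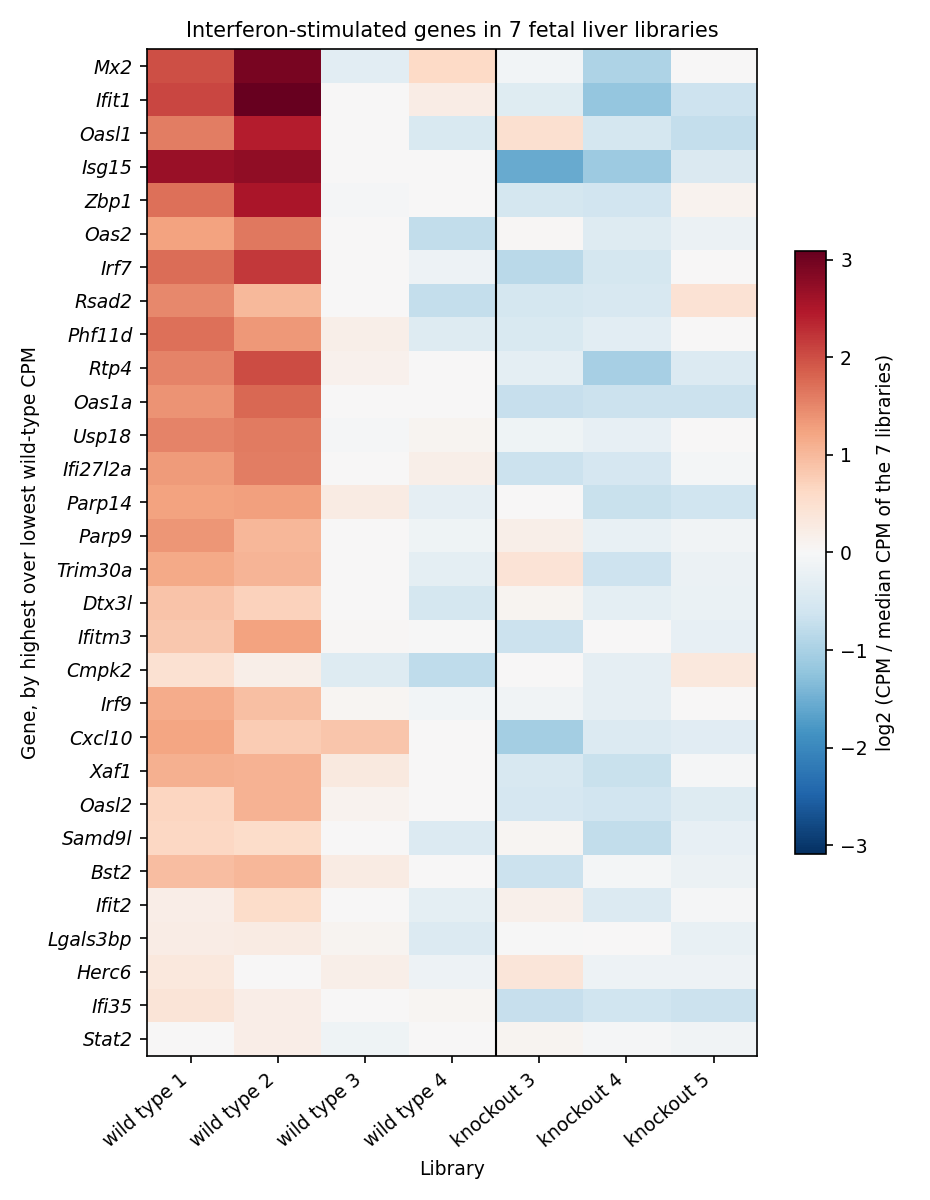
Heat map of the 30 genes (rows, from the largest to the smallest ratio of highest to lowest wild-type CPM) in the 7 libraries (columns), coloured by log2 of the CPM over the gene's median across libraries. The columns of wild type replicates 1 and 2 are red for nearly all genes, with median values of 1.22 and 1.07, while the other columns have medians from -0.50 to 0.00.

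All 30 members passed the filter on low counts, with mean levels from 0.703 CPM in Oasl1 to 23.3 CPM in Irf9. Per kilobase of exon, the scale that allows genes to be compared with each other, mean levels ran from 0.270 CPM in Oasl1 to 29.2 CPM in Ifitm3. After Ifitm3 followed Bst2 at 13.7 and Ifi35 at 8.91 CPM per kilobase, so the most abundant products were 2 membrane-resident restriction factors and a leucine-zipper protein. Isg15 reached 5.82 CPM per kilobase, and Mx2, Phf11d and Zbp1 stayed between 0.287 and 0.333.

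Comparing knockout with wild type asks whether loss of Pcbp2 changed these genes. In edgeR's quasi-likelihood test over all 7 libraries, 3 of 30 members fell at a Benjamini-Hochberg adjusted p under 0.05, a share to be read against 3.43% of all tested genes called lower. These were Ifi35, Cxcl10 and Oasl2. Leaving out wild type replicate 4 raised the count to 9, beside 2.02% of the genes tested in that fit. It went to 1 when wild type replicate 1, knockout replicate 3 or knockout replicate 4 was dropped, beside 2.26%, 2.92% and 1.48% of genes. On dropping knockout replicate 5 it went to 0 (18 at an unadjusted p under 0.05), beside 0.706% of genes. None rose (0 in edgeR, in DESeq2 and at an unadjusted p under 0.05). At an unadjusted p under 0.05, 19 of 30 were lower, beside 11.8% of tested genes. On the log2 scale, knockout over wild type, the fold change was negative in 29 of 30 members, Cmpk2 being the exception (Stat2 and Herc6 also turned positive with total-count scaling), and in 47.9% of tested genes. Its median was -1.01 over the members and 0.01 over all tested genes. Fewer cells of a responding type and less RNA per cell cannot be told apart in whole tissue.

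Ifi35, an interferon-induced leucine-zipper protein that pairs with Nmi (chr11:101448407-101458698, mm10), gave the clearest separation. Its libraries measured 22.1, 19.4, 16.8 and 17.4 CPM in wild type and 10.3, 11.01 and 10.7 CPM in knockout. Every wild-type library lay above every knockout library, and the wild-type values spread little. The means were 18.95 ± 2.39 CPM (SD, n = 4) in wild type and 10.6 ± 0.380 CPM (SD, n = 3) in knockout, with a log2 fold change of -0.83 ± 0.13 (SE; edgeR adjusted p = 0.00767). Without wild type replicates 1 and 2 the log2 fold change was -0.70 ± 0.12 and the gene was still called (adjusted p = 0.0286). It was not called without knockout replicate 5 (adjusted p = 0.0552).

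Cxcl10, a secreted chemokine that draws activated T cells and natural killer cells (chr5:92346638-92348889), measured 5.38, 4.03, 4.21 and 2.32 CPM in wild type and 1.12, 1.74 and 1.83 CPM in knockout. The groups did not overlap, but wild type replicate 4 lay closest to the knockout libraries. Its means were 3.99 ± 1.26 CPM (SD, n = 4) in wild type and 1.56 ± 0.386 CPM (SD, n = 3) in knockout (log2 fold change -1.34 ± 0.31, adjusted p = 0.0362). The call was lost when any of wild type replicates 1 and 3 and the 3 knockout libraries was left out, at edgeR adjusted p-values from 0.0774 to 0.112, and without wild type replicates 1 and 2 together the log2 fold change was -1.07 ± 0.33 (adjusted p = 0.131). The gene overlaps Art3 on the opposite strand, and the sources used here do not give the strand setting of the counting.

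Oasl2, an oligoadenylate synthetase-like protein (chr5:114896936-114912234), measured 16.5, 21.5, 11.2 and 10.3 CPM in wild type and 7.17, 6.84 and 7.84 CPM in knockout. Each knockout value lay below each wild-type value, and replicates 3 and 4 were the lower wild-type libraries. Its means were 14.9 ± 5.22 CPM (SD, n = 4) in wild type and 7.28 ± 0.511 CPM (SD, n = 3) in knockout (log2 fold change -1.03 ± 0.24, adjusted p = 0.0401). Without wild type replicates 1 and 2 the log2 fold change was -0.58 ± 0.15 (edgeR adjusted p = 0.0828). Without wild type replicate 1 or knockout replicate 3, 4 or 5 the gene was not called either, at adjusted p-values from 0.0806 to 0.130.

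**Figure D2:**
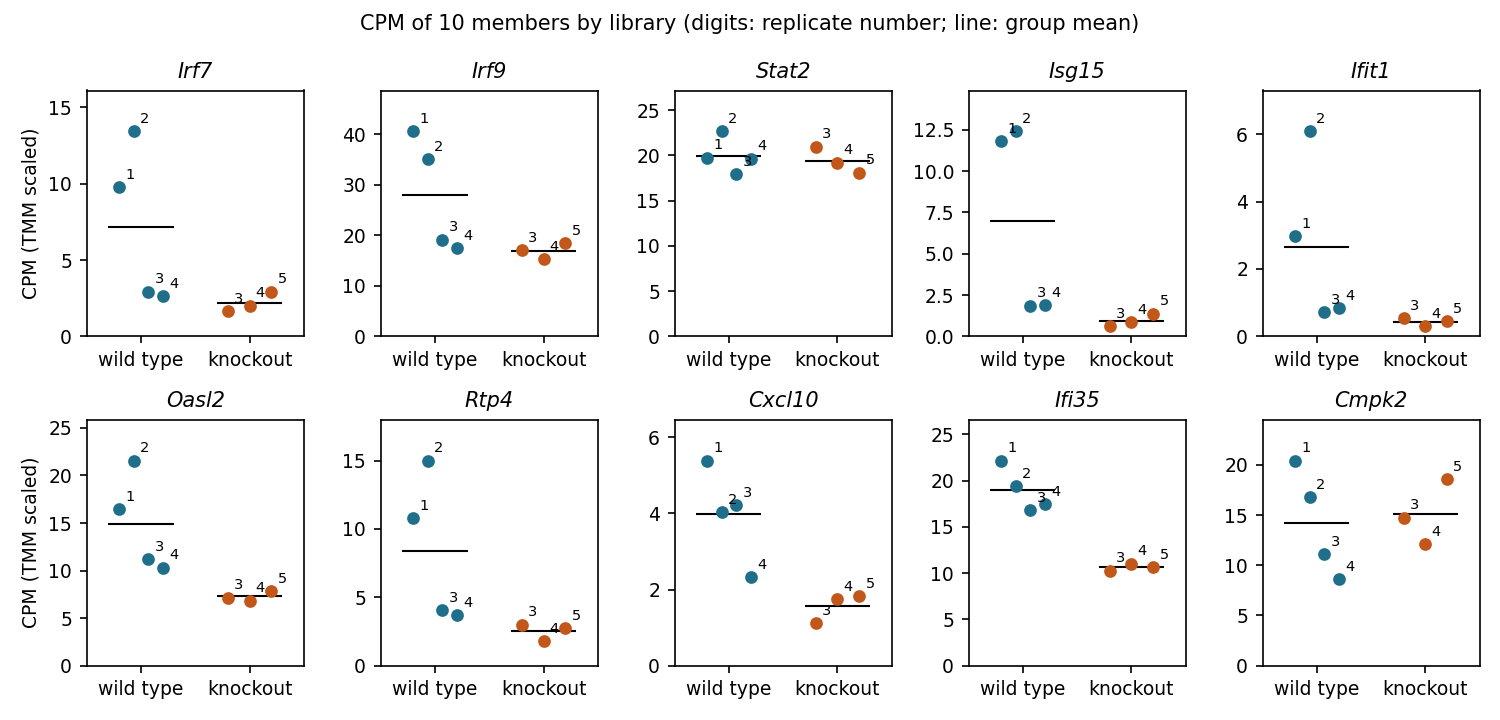
CPM (vertical axes, TMM scaled, each starting at 0) of 10 of the genes in the 4 wild-type and 3 knockout libraries, with digits for the replicate number and lines for the group means. The groups do not overlap in Ifi35, Cxcl10, Oasl2, Isg15, Ifit1 and Rtp4. In Irf7, Irf9, Isg15, Ifit1, Oasl2 and Rtp4 wild type replicates 1 and 2 lie above all other libraries, and in Stat2 and Cmpk2 the groups overlap.

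The factors that carry the signal to the nucleus came next. Irf9, the DNA-binding subunit of ISGF3, measured 40.6, 35.05, 19.2 and 17.5 CPM in wild type and 17.1, 15.2 and 18.5 CPM in knockout (log2 fold change -0.73 ± 0.28, adjusted p = 0.159). Irf7, which drives further interferon production, measured 9.78, 13.4, 2.93 and 2.62 CPM in wild type and 1.63, 2.01 and 2.94 CPM in knockout (log2 fold change -1.71 ± 0.56, adjusted p = 0.108). In both genes wild type replicates 1 and 2 were the 2 highest libraries, and replicates 3 and 4 lay within or near the knockout range. Stat2, which also belongs to ISGF3, measured 19.7, 22.6, 17.9 and 19.6 CPM in wild type and 20.96, 19.2 and 18.1 CPM in knockout (log2 fold change -0.04 ± 0.12, adjusted p = 0.870), and its groups overlapped. Stat2 had the smallest wild-type spread of the 30. Irf9 overlaps Rnf31 on the same strand, and Irf7 overlaps Phrf1 on the opposite strand.

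The proteins with tetratricopeptide repeats encoded by the Ifit genes bind foreign RNA ends and block their translation. Ifit1 (chr19:34640871-34650009) measured 2.98, 6.08, 0.712 and 0.828 CPM in wild type and 0.544, 0.309 and 0.456 CPM in knockout (log2 fold change -2.61 ± 0.75, adjusted p = 0.0749). Wild type replicate 2 was highest, followed by replicate 1, and all 3 knockout values lay below the 4 wild-type ones. The closest were wild type replicate 3 and knockout replicate 3, at 26 and 18 reads. Ifit2 measured 13.6, 17.7, 11.8 and 9.61 CPM in wild type and 13.2, 8.85 and 11.6 CPM in knockout (log2 fold change -0.23 ± 0.21, adjusted p = 0.562), and its groups overlapped. Copies of the Ifit genes resemble each other, so reads may have been split or dropped between them.

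Isg15 (chr4:156199424-156200818), a ubiquitin-like modifier that is attached to newly made proteins, had the most negative fold change of the 30. It measured 11.8, 12.4, 1.86 and 1.89 CPM in wild type and 0.635, 0.861 and 1.37 CPM in knockout. The highest wild-type library was 6.66 times the lowest, and the knockout libraries lay below all 4. Means were 6.99 ± 5.91 CPM (SD, n = 4) in wild type and 0.955 ± 0.376 CPM (SD, n = 3) in knockout (log2 fold change -2.86 ± 0.74, adjusted p = 0.0548), so that the difference did not pass the threshold. Usp18, the protease that removes Isg15 and also dampens signalling at the interferon receptor, measured 6.33, 6.64, 2.13 and 2.32 CPM in wild type and 1.996, 1.83 and 2.20 CPM in knockout (log2 fold change -1.11 ± 0.42, adjusted p = 0.151). For Usp18 the wild type replicates 3 and 4 and the knockout libraries covered nearly the same range. Herc6, the mouse ligase that attaches Isg15, measured 15.6, 12.3, 13.98 and 11.04 CPM in wild type and 15.9, 11.1 and 11.1 CPM in knockout (log2 fold change -0.06 ± 0.17, adjusted p = 0.865), and its groups overlapped.

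Oligoadenylate synthetases make the second messenger that activates the ribonuclease RNase L. Oas1a (chr5:120896256-120907521) measured 5.08, 6.61, 1.94 and 1.95 CPM in wild type and 1.18, 1.24 and 1.23 CPM in knockout (log2 fold change -1.68 ± 0.45, adjusted p = 0.0603). Its knockout libraries were nearly equal to each other and below every wild-type library. Oas2 measured 3.28, 4.30, 1.396 and 0.828 CPM in wild type and 1.42, 1.06 and 1.23 CPM in knockout (log2 fold change -0.99 ± 0.50, adjusted p = 0.283), and wild type replicate 4 was its lowest library. Oasl1, which restrains Irf7 translation, was the least abundant member, with 0.276 to 2.07 CPM in wild type and 0.228 to 0.544 CPM in knockout (log2 fold change -1.50 ± 0.69, adjusted p = 0.240). Mx2, a dynamin-like GTPase that acts against viruses, measured 2.03, 3.93, 0.411 and 0.782 CPM in wild type and 0.484, 0.265 and 0.513 CPM in knockout (log2 fold change -2.10 ± 0.70, adjusted p = 0.116). In Mx2 and Oasl1 the wild type replicates 1 and 2 were highest and the other 5 libraries overlapped. The Oas1 genes form a cluster of close copies, for which the assignment of reads is uncertain.

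Several members act at membranes or are secreted. Bst2, or tetherin, which holds budding virus at the cell surface, measured 19.6, 20.5, 11.96 and 10.1 CPM in wild type and 6.32, 9.58 and 8.87 CPM in knockout (log2 fold change -0.91 ± 0.26, adjusted p = 0.0774). Ifitm3, which blocks fusion of virus with endosomes, measured 28.4, 38.2, 16.4 and 15.9 CPM in wild type and 10.1, 16.02 and 13.5 CPM in knockout (log2 fold change -0.90 ± 0.30, adjusted p = 0.117). Bst2 kept its groups apart, by a small margin between wild type replicate 4 and knockout replicate 4, and Ifitm3 did not. Rtp4, a transporter protein of the Golgi that also inhibits flavivirus replication, measured 10.8, 14.98, 4.08 and 3.70 CPM in wild type and 2.99, 1.81 and 2.77 CPM in knockout (log2 fold change -1.74 ± 0.48, adjusted p = 0.0688). Its 4 wild-type libraries lay above the 3 knockout ones, with replicates 1 and 2 well above the rest. Its gene overlaps Masp1 on the opposite strand. Ifi27l2a, a small hydrophobic protein induced by interferon, measured 3.22, 3.88, 1.29 and 1.45 CPM in wild type and 0.817, 0.905 and 1.23 CPM in knockout (log2 fold change -1.32 ± 0.42, adjusted p = 0.102). Lgals3bp, a secreted glycoprotein, measured 19.8, 20.1, 18.01 and 12.6 CPM in wild type and 16.8, 16.97 and 14.5 CPM in knockout (log2 fold change -0.13 ± 0.17, adjusted p = 0.694). The groups of Ifi27l2a did not overlap, although wild type replicate 3 and knockout replicate 5 nearly met, at 47 and 43 reads. Those of Lgals3bp overlapped, and only wild type replicate 4 of Lgals3bp stood somewhat below the others.

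Enzymes and sensors of nucleic acids and nucleotides made up the next set. Rsad2, or viperin, which makes a chain-terminating nucleotide, measured 6.80, 4.86, 2.41 and 1.45 CPM in wild type and 1.66, 1.72 and 3.28 CPM in knockout (log2 fold change -0.80 ± 0.48, adjusted p = 0.373). Cmpk2, its neighbour on chromosome 12 and a mitochondrial nucleotide kinase, measured 20.4, 16.8, 11.1 and 8.60 CPM in wild type and 14.8, 12.1 and 18.6 CPM in knockout (log2 fold change 0.09 ± 0.27, adjusted p = 0.880). Wild type replicates 1 and 2 were high in both genes, but knockout replicate 5 was second only to wild type replicate 1 in Cmpk2. Samd9l, a restriction factor of poxviruses and a brake on growth of blood cells, measured 18.2, 17.4, 11.7 and 8.69 CPM in wild type and 12.2, 6.88 and 9.87 CPM in knockout (log2 fold change -0.54 ± 0.27, adjusted p = 0.281). Zbp1, a sensor of Z-form nucleic acid, measured 1.73, 3.03, 0.520 and 0.529 CPM in wild type and 0.363, 0.353 and 0.570 CPM in knockout (log2 fold change -1.76 ± 0.64, adjusted p = 0.141). Both had overlapping groups in which wild type replicates 1 and 2 were highest.

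Parp9 and Dtx3l form a complex that ADP-ribosylates ubiquitin, and their genes share a promoter region and overlap each other on opposite strands. Parp9 measured 24.6, 19.5, 9.61 and 8.79 CPM in wild type and 10.8, 8.16 and 8.98 CPM in knockout (log2 fold change -0.74 ± 0.33, adjusted p = 0.229). Dtx3l measured 19.03, 17.1, 10.4 and 7.18 CPM in wild type and 10.9, 8.49 and 9.07 CPM in knockout (log2 fold change -0.50 ± 0.29, adjusted p = 0.362). Reads that fit more than 1 gene were set aside as ambiguous (0.447% to 0.536% of reads per library). The effect of the overlap on the counts of these 2 genes was not tested. Parp14, a mono-ADP-ribosyltransferase next to them on chromosome 16, measured 20.1, 20.6, 10.2 and 7.08 CPM in wild type and 8.53, 5.32 and 5.53 CPM in knockout (log2 fold change -1.17 ± 0.36, adjusted p = 0.0942). In all 3 genes wild type replicates 1 and 2 were the 2 highest of the 7 libraries.

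The remaining members act in cell death and signalling. Xaf1, an antagonist of the caspase inhibitor XIAP, measured 13.3, 13.2, 7.64 and 6.23 CPM in wild type and 4.42, 3.86 and 6.07 CPM in knockout (log2 fold change -1.08 ± 0.29, adjusted p = 0.0625). Its groups did not overlap, although wild type replicate 4 and knockout replicate 5 nearly met. Trim30a, a mouse TRIM protein that restrains inflammatory signalling, measured 18.3, 16.6, 8.05 and 6.55 CPM in wild type and 10.9, 5.16 and 7.07 CPM in knockout (log2 fold change -0.69 ± 0.37, adjusted p = 0.318). Phf11d, a PHD-finger protein, measured 3.15, 2.44, 1.09 and 0.736 CPM in wild type and 0.696, 0.772 and 0.970 CPM in knockout (log2 fold change -1.18 ± 0.48, adjusted p = 0.186). Both belong to clusters of near copies, so their counts are uncertain, and in both the groups overlapped. In total 10 members had all knockout libraries below all wild-type ones: Ifit1, Isg15, Oasl2, Oas1a, Bst2, Xaf1, Cxcl10, Ifi35, Ifi27l2a and Rtp4. That order was met by 10.8% of tested genes. Set against wild type replicates 3 and 4 only, 10 members had all knockout libraries lower, beside 18.6% of tested genes.

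The 3 symbols absent from the authors' table had reads under the names of the GENCODE M21 annotation. Ifit3 had 94, 243, 19 and 24 reads in wild type and 11, 20 and 16 in knockout. Mx1 had 108, 198, 20 and 37 reads in wild type and 24, 29 and 25 in knockout. Ifi44 had 8, 51, 3 and 1 reads in wild type and 4, 7 and 3 in knockout. These genes too were highest in wild type replicates 1 and 2. Ifit3 and Mx1 were tested in edgeR and not called (adjusted p = 0.102 and 0.153), and Ifi44 did not pass the filter on low counts.

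Fits with some of the wild-type libraries are given as a description. With knockout set against wild type replicates 3 and 4 only, the median log2 fold change of the members was -0.24, beside 0.01 over all tested genes, and 19 of 30 were negative. Of the members, 29 of 30 moved closer to 0, while Cmpk2 went from 0.09 ± 0.27 to 0.60 ± 0.21 (SE; edgeR adjusted p = 0.166). The number of members with a log2 fold change under -1 went from 15 to 1, Cxcl10. Only Ifi35 was called lower, or 1 of 30, beside 2.24% of tested genes. With knockout set against wild type replicates 1 and 2 only, 20 of 30 were called lower, beside 1.1% of tested genes. Since replicates 1 and 2 were the 2 highest wild-type libraries in 28 of the 30 members, the direction of both shifts follows from which libraries were left out, and neither count tests anything about the members.

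**Figure D3:**
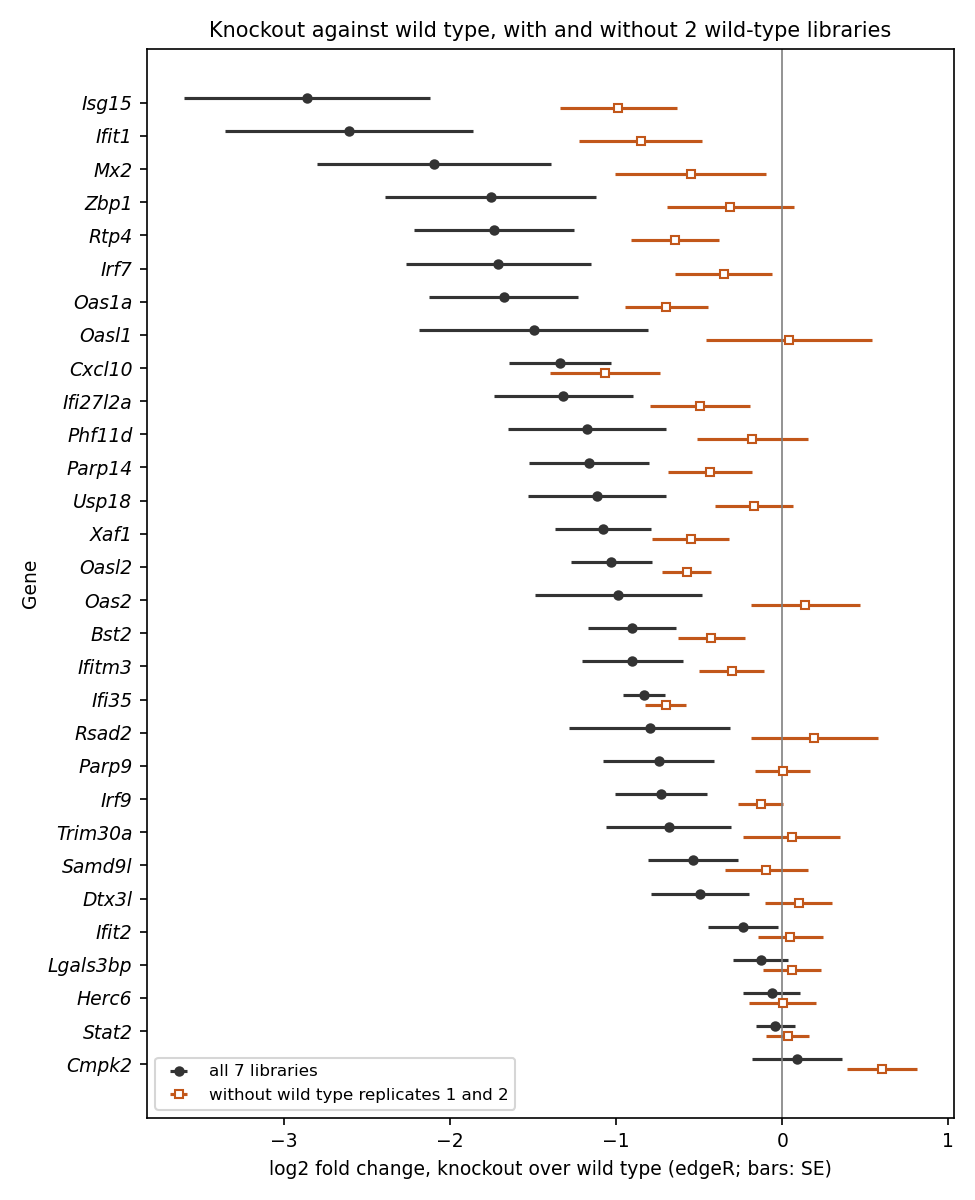
Log2 fold change of knockout over wild type (horizontal axis) for each of the 30 genes (vertical axis) from edgeR with all 7 libraries (filled circles) and without wild type replicates 1 and 2 (open squares), with bars for SE. The squares lie closer to 0 than the circles in 29 genes, where Ifi35 has -0.70 ± 0.12 and Cxcl10 -1.07 ± 0.33, and Cmpk2 lies farther from 0, at 0.60 ± 0.21.

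DESeq2 and the authors made more calls on these libraries, and limma-voom made fewer, 1 (Ifi35), beside 3.2% of genes. DESeq2 called 15 of 30 members lower, beside 6.5% of the genes for which it gave an adjusted p. In the authors' deposited table, 15 of 30 members had an adjusted p under 0.05 and a negative log2 fold change, beside 6.86% of its 15548 genes. The authors' deposited table gives log2 fold changes of -1.84 for Isg15, -1.68 for Ifit1, -1.50 for Oas1a and -0.82 for Ifi35, with adjusted p-values of 0.0162, 0.0323, 0.00125 and 3.66e-07. The first 3 of these were not called by edgeR, which had adjusted p-values of 0.0548, 0.0749 and 0.0603, while Ifi35 was called by both. DESeq2 as run here gave log2 fold changes of -2.87 for Isg15, -2.60 for Ifit1, -1.68 for Oas1a and -0.84 for Ifi35. The authors' settings are not given, so their fold changes may have been estimated in another way and are not set against these in size.

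The rest of the interferon pathway was read from a list of 110 other genes, of which 108 were found and 93 tested. In edgeR 6 of 93 fell, beside 3.43% of all tested genes, and 0 rose, beside 258 of the 16226. The list held 1 gene higher at an unadjusted p under 0.05 and 1 called higher by DESeq2 (Irf2bp2 in both). The median log2 fold change over the 93 was -0.31. The 9 ligands were Ifnb1, Ifna1, Ifna2, Ifna4, Ifne, Ifnk, Ifng, Ifnl2 and Ifnl3. They had 0 reads in every library except for 1 read of Ifnk in knockout replicate 4. The messengers of these 9 ligands were thus under the limit of 3 reads in every library, wild type replicates 1 and 2 included. Interferon genes outside these 9 were not looked up.

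Of 9 receptors and kinases, 1 fell. Ifnar2, the signalling chain of the type I receptor, measured 43.8, 37.5, 39.4 and 35.3 CPM in wild type and 29.97, 27.96 and 25.4 CPM in knockout (log2 fold change -0.49 ± 0.11, adjusted p = 0.034). The call was lost in 7 of the fits with libraries left out, among them those without wild type replicates 1 and 2 (-0.45 ± 0.12, adjusted p = 0.0954) and without wild type replicates 3 and 4 (adjusted p = 0.147). Ifnar1, the other chain, measured 75.97, 94.01, 87.03 and 81.1 CPM in wild type and 77.6, 65.95 and 71.4 CPM in knockout (log2 fold change -0.24 ± 0.10, adjusted p = 0.212). Il10rb, a chain of the type III receptor, had a log2 fold change of -0.29 ± 0.11 (edgeR adjusted p = 0.162). In their summed level these 9 genes did not set wild type replicates 1 and 2 apart, with 519, 484, 526 and 476 CPM in wild type and 497, 432 and 439.6 CPM in knockout, and replicates 1 and 2 were the 2 highest wild-type libraries in 1 of the 9. That order held in 3 of 9 tested transcription factors, 8 of 17 sensors and adaptors and 1 of 7 negative regulators, beside 13.4% of tested genes. The sensors and adaptors summed to 403, 384, 363 and 331 CPM in wild type and 372, 322 and 332 CPM in knockout. The transcription factors summed to 199, 197, 177 and 176 CPM in wild type and 180, 173 and 164 CPM in knockout.

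Of 9 tested transcription factors outside the member list, none was called by edgeR or DESeq2, and 4 were lower at an unadjusted p under 0.05. Irf8, Irf1 and Irf4 had the smallest p-values of this group, with log2 fold changes of -0.39 ± 0.14, -0.33 ± 0.13 and -1.09 ± 0.45 (SE; edgeR adjusted p = 0.131, 0.190 and 0.195). Among 7 negative regulators edgeR called none and DESeq2 called 1 (1 at an unadjusted p under 0.05), and the smallest p-values were those of Irf2bp2, Ptpn11 and Socs3, at 0.36 ± 0.11, -0.18 ± 0.10 and -0.24 ± 0.16. Irf2bp2, a corepressor and the gene that DESeq2 called, measured 31.01, 33.3, 36.4 and 29.8 CPM in wild type and 42.3, 44.9 and 38.8 CPM in knockout (edgeR adjusted p = 0.0773).

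Among 17 sensors and adaptors edgeR called none and DESeq2 called 1, Mb21d1, with 2 lower at an unadjusted p under 0.05 in edgeR. Mavs, the adaptor named above, measured 34.8, 32.1, 40.6 and 34.8 CPM in wild type and 38.95, 28.6 and 24.9 CPM in knockout (log2 fold change -0.21 ± 0.15, adjusted p = 0.475). Its groups overlapped. Mb21d1, which encodes the DNA sensor cGAS, measured 10.2, 8.57, 6.70 and 6.26 CPM in wild type and 5.78, 4.26 and 4.33 CPM in knockout (log2 fold change -0.73 ± 0.21, adjusted p = 0.0749). Eif2ak2, the kinase PKR that stops translation on sensing double-stranded RNA, measured 65.5, 63.3, 38.8 and 27.6 CPM in wild type and 36.4, 25.9 and 34.5 CPM in knockout (log2 fold change -0.60 ± 0.27, adjusted p = 0.239), with wild type replicates 1 and 2 again highest. Myd88, an adaptor of Toll-like receptors, had a log2 fold change of -0.31 ± 0.11 (edgeR adjusted p = 0.139).

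Among 51 other interferon-induced genes 5 fell, beside 3.43% of all tested genes. In 37 of the 51 wild type replicates 1 and 2 were the 2 highest wild-type libraries, beside 13.4% of tested genes. Ube2l6, the conjugating enzyme of Isg15, measured 288, 195, 228 and 215 CPM in wild type and 60.6, 46.6 and 60.7 CPM in knockout (log2 fold change -2.05 ± 0.16, adjusted p = 0.000491). It is abundant in red cell precursors, and here its highest wild-type library was 1.48 times the lowest, beside 6.66 times for Isg15. Psmb8, a subunit of the immunoproteasome, measured 9.07, 9.05, 6.70 and 8.12 CPM in wild type and 3.36, 4.13 and 3.28 CPM in knockout (log2 fold change -1.20 ± 0.17, adjusted p = 0.00595). Ly6e, a membrane-anchored protein, measured 99.4, 119.8, 88.2 and 101 CPM in wild type and 67.2, 66.4 and 55.1 CPM in knockout (log2 fold change -0.70 ± 0.12, adjusted p = 0.0136). These 3 were also called without wild type replicates 1 and 2, at log2 fold changes of -2.003 ± 0.13, -1.06 ± 0.19 and -0.60 ± 0.12 (SE; edgeR adjusted p = 0.00128, 0.0319 and 0.046). Slfn8, of the Schlafen family, measured 6.64, 5.59, 3.42 and 3.33 CPM in wild type and 1.87, 1.37 and 1.65 CPM in knockout (log2 fold change -1.54 ± 0.29, adjusted p = 0.0176). Ifi203, of the cluster of DNA-binding Ifi200 proteins, measured 22.7, 14.7, 10.1 and 10.7 CPM in wild type and 6.83, 2.87 and 3.76 CPM in knockout (log2 fold change -1.70 ± 0.35, adjusted p = 0.0243). Slfn8 and Ifi203 were not called without those 2 libraries (edgeR adjusted p = 0.0572 and 0.0858), nor without knockout replicate 4 (0.0659 and 0.0756) or 5 (0.0858 and 0.120), and Ly6e was not called without knockout replicate 5 (0.0800).

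Markers of several cell types also differed between the libraries. Their counts are to be read beside 3.43% of tested genes called lower and 258 of 16226 called higher by edgeR. Of 15 macrophage markers 14 were found, none of them at 0 reads, and their summed level was 502, 455, 452 and 456 CPM in wild type and 409.9, 336 and 309.9 CPM in knockout. In edgeR 6 of the 14 fell: C1qb, Marco, C1qa, Fcgr1, C1qc and Csf1r. The macrophage sum did not set wild type replicate 2 apart from 3 and 4, but it was lower in all 3 knockout libraries than in all wild-type ones. The same order held for the sums of the dendritic cell, lymphoid, erythroid and megakaryocyte markers. The megakaryocyte sum, for one, was 303, 267, 341 and 368 CPM in wild type and 142, 158 and 161 CPM in knockout. The endothelial sum was higher in all knockout libraries, and the other sums overlapped between the groups. The part of any of these cell types in the members that separated the groups was not tested. Of 7 tested dendritic cell markers 3 fell (Flt3, Ccr9 and Itgax), Klk1 and Cd209d being at or under 3 reads over all libraries. The list's sum was 7.65, 7.30, 7.99 and 8.14 CPM in wild type and 5.02, 5.32 and 4.31 CPM in knockout. In this list DESeq2 called 1 marker higher, and edgeR had 1 higher at an unadjusted p under 0.05. Of 9 granulocyte markers 1 fell (Ctsg), of 8 erythroid markers 6 (among them Alas2, Trim10, Rhd, Slc4a1 and Klf1) and of 6 megakaryocyte markers 5 (Ppbp, Pf4, Gp1bb, Gp9 and Itga2b).

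Ube2l6 moved beside the erythroid list, whose sum was 6569, 3301, 5707 and 4377 CPM in wild type and 2487, 1472 and 1891 CPM in knockout, and the part of red cell precursors in its fall was not tested. Of 8 endothelial markers 4 rose (Emcn, Pecam1, Cdh5 and Flt1), and of 8 markers of heart and skeletal muscle 2 rose (Myh6 and Nppa), while edgeR called none of 4 tested lymphoid, 8 hepatoblast, 8 stellate and mesothelial and 5 adrenal markers. At an unadjusted p under 0.05 these lists held 2, 1, 2 and 0 lower genes, and DESeq2 called 0, 1, 1 and 0. The sum of the muscle markers was 79.1, 169, 92.3 and 119 CPM in wild type and 362, 84.8 and 174 CPM in knockout. Of these 8 muscle markers 2 had a negative log2 fold change. The smallest p-values among uncalled markers were those of Camp and S100a9 (granulocyte), Rag1, Il7r and Vpreb1 (lymphoid), Apoa1, Dlk1 and Apoa2 (hepatoblast), Upk3b, Msln and Col3a1 (stellate and mesothelial), Tnnt2 (muscle) and Chga, Star and Dbh (adrenal). The adrenal sum was 6.84 and 35.9 CPM in wild type replicates 1 and 2 and 2.41 to 6.49 CPM in the other libraries, and its part in the members' levels was not tested. In no other marker list were wild type replicates 1 and 2 the libraries with the 2 highest sums.

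**Figure D4:**
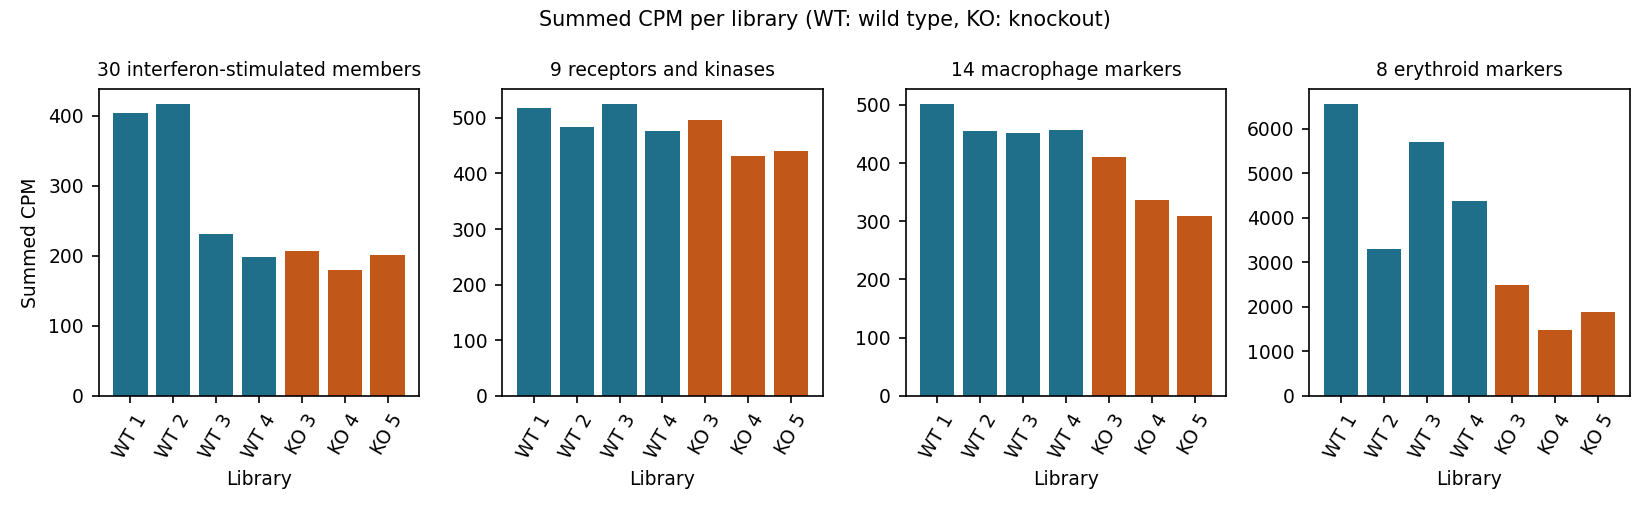
Summed CPM (vertical axes, starting at 0) in each library for the 30 interferon-stimulated genes, 9 receptors and kinases, 14 macrophage markers and 8 erythroid markers, with wild type (WT) in blue and knockout (KO) in orange. Wild type replicates 1 and 2 stand at 403 and 417 CPM for the interferon-stimulated genes but are not the 2 highest libraries in any of the other 3 lists.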

How the data were processed

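Messenger RNA of fetal liver was sequenced in 4 wild-type and 3 Pcbp2 knockout libraries (TruSeq stranded mRNA, per the labels' protocols). The submitters' processing notes name cutadapt 1.4.2, TopHat2, HTSeq, DESeq2, DESeq and the build mm10, without their settings. The authors deposited each library's raw read counts by gene, with 5 summary lines that were left out (reads in no gene were 4.89% to 7.61% of reads). The authors' deposited table holds, for 15548 genes, a mean normalized signal, a log2 fold change, a Wald score and p-values. Members were found by symbol in that table.

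Counts were tested in R 4.3.3 with edgeR 4.0.16 (filterByExpr, TMM, quasi-likelihood, genotype as only term), adjusted over 16226 genes by Benjamini-Hochberg, and called at an adjusted p under 0.05. The SE is the log2 fold change over the root of its F statistic. CPM is TMM scaled. Exon lengths and coordinates came from GENCODE M21 and promoters from RefSeq on GRCm38.p6. The fit was tested on simulated data. Alternatives used RLE or total-count scaling, other filters, limma-voom 3.58.1, DESeq2 1.42.0, a replicate block, and fits with libraries left out.

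Every member is named, with pathway and marker genes that were called, up to 3 per role by smallest p, and Pcbp2, Mavs, Ifnar1 and Ifnar2. Of the genes this rule names, 2 are not reported here. The members, lists and tests were chosen with earlier results of these data known.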

Additional observations from a re-analysis of the deposited data

Results flagged for a closer look

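Pcbp2 in wild type replicate 1 measured 164.8 CPM, beside 329, 347 and 338 CPM in wild type replicates 2 to 4. The gap between this library and the nearest other one was 0.899 of the range of the 4, above Dixon's critical value for 4 samples. It was the only case among 32 such checks, over the members, Pcbp2 and the members' summed level, to pass its limit, and about 1 in 20 would do so by chance. The part of this difference in the members' levels was not tested.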

How the results depend on the processing

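The count of 3 members called lower by edgeR was 3 with RLE size factors (beside 3.46% of genes) and 2 with total-count scaling (beside 2.42%). It was also 2 where 3 libraries had to reach 5 CPM (beside 4.32%), under which 16 members were tested. It was 11 with no filter on low counts (beside 3.07% of genes), 1 with limma-voom, 15 with DESeq2, 1 without wild type replicates 1 and 2, and 20 without wild type replicates 3 and 4. Leaving out single libraries gave 0 to 9: 0 without knockout replicate 5 (18 at an unadjusted p under 0.05, and 0 in the direction of a rise), 1 without wild type replicate 1, knockout replicate 3 or knockout replicate 4, and 9 without wild type replicate 4. Adding Ifit3, Mx1 and Ifi44, an alternative chosen after seeing the data, left 3. No alternative called a member higher. Of the pathway list, 6 called lower became 12 with no filter, 17 with DESeq2, 3 without wild type replicates 1 and 2, 15 without wild type replicates 3 and 4, and 2 to 6 with single libraries left out (2 without knockout replicate 5). The count called higher went from 0 to 1 with total-count scaling, DESeq2 and the replicate block. The cause of these shifts was not tested.

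The groups share only the numbers 3 and 4, and no label ties equal numbers to a shared litter or batch. Deviations from the group means correlated at 0.32 and 0.26 for them, and at -0.33 to 0.15 for pairs of unequal numbers. Whether equal numbers share a batch was not tested. With the replicate block, 6 members and 8 pathway genes were called lower, beside 1204 of all tested genes (7.42%, against 3.43% without the block), and the members' median log2 fold change was -0.31. In that fit wild type replicates 1 and 2 and knockout replicate 5 have no library of the same number in the other group. The fold change thus rests on replicates 3 and 4 of each group. Each gene's own spread in that fit rests on the same libraries, so its larger share of calls cannot be read as a gain from the block. Total-count scaling moved the median of all genes from 0.01 to 0.14, and calls over all genes from 556 lower and 258 higher to 393 lower and 651 higher. Over 466 refits of single members, 371 kept direction and call, 49 gained a call, 16 lost it and 30 changed sign, all 30 in genes that were not called. Beside the losses given with each gene, Cxcl10 was not called with limma-voom (adjusted p = 0.0599) or without wild type replicates 3 and 4 (edgeR, 0.0562), and Oasl2 with total-count scaling (edgeR, 0.0630) or limma-voom (0.0694).

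The changes of sign in the log2 fold change were these. With total-count scaling, Stat2 was 0.0770 and Herc6 0.0627. With the replicate block, Stat2 was 0.0965, Ifit2 0.0193, Oasl1 0.243, Oas2 0.186, Parp9 0.0327, Dtx3l 0.158, Trim30a 0.0513, Lgals3bp 0.166 and Herc6 0.0941. Without wild type replicates 1 and 2, Stat2 was 0.0315, Ifit2 0.0485, Oasl1 0.0400, Oas2 0.139, Rsad2 0.192, Parp9 0.00231, Dtx3l 0.0981, Trim30a 0.0561, Lgals3bp 0.0586 and Herc6 0.00179. Cmpk2 was -0.300 without wild type replicates 3 and 4. With single libraries left out, Stat2 ran from -0.0997 to 0.0139, Herc6 from -0.258 to 0.0278 and Cmpk2 from -0.0923 to 0.311.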
